A study of Sus scrofa with 63 samples.

Results

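Skin that had been exposed to sulfur mustard was set against unexposed skin at 514 h, the last of 9 sampling times. The comparison uses 6 of the 63 arrays of the study, namely every array whose title gives 514 h and either exposure or exposure control, and all 23999 probe sets that are not array controls. The 3 exposed arrays came from abdominal sites of female Yorkshire crossbred pigs that had received 400 µL of neat sulfur mustard for 8 min after the hair was removed, a dose meant to give a superficial injury of the dermis. The 3 control arrays came from unexposed sites of the ventral abdomen, and per the labels 3 animals at each time gave the exposed and the control sites. A further array at 514 h came from 1 sham animal, which was prepared in the same way without receiving the agent, and it is given here as an additional value and not as a group. Each array holds RNA from an 8 mm punch biopsy of a 3 cm site, so epidermis, dermis and whatever lies beneath were measured together. The design text gives the last time as day 21, whereas the labels of the arrays give 514 h.

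Sulfur mustard is an alkylating agent that damages DNA and protein and causes blistering where the basal epidermis separates from the dermis. After such an injury keratinocytes migrate across the wound, proliferate and stratify again, while fibroblasts lay down new matrix that is remodelled long after the surface has closed. Whole-biopsy RNA cannot separate fewer cells of a type from less RNA per cell.

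The deposited histology scores describe the same biopsies, and a total of 13 is given for normal skin, so lower scores lie further from normal. Re-epithelialization scored 1 in all 3 exposed biopsies, the same score as in the control and sham biopsies, and hair follicles, glands and smooth muscles also scored 1 throughout. Collagen orientation scored 1, 1 and 1 in the exposed biopsies against 3, 3 and 3 in the control biopsies. Epidermal hyperplasia and vascular proliferation scored 0 in each exposed biopsy and 1 in each control biopsy. The score for fibroplasia was 0, 0 and 1 in the exposed biopsies, that for hemorrhage and for separation of epidermis from dermis 0, 1 and 1, and that for inflammatory cells 1, 0 and 1, each against 1 in every control. The totals were 6, 7 and 9 for exposed replicates 1, 2 and 3, or 7.33 ± 1.53 (SD, n = 3), against 13 for each control and for the sham. The surface was thus scored as closed in every exposed biopsy, and the exposed and control totals did not overlap.

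The arrays carried the markers of the labelled tissue. The suprabasal keratin KRT1 had log2 signals of 14.27, 14.27 and 14.30 in the exposed arrays against 14.12, 14.15 and 14.19 in the control arrays, with 14.23 in the sham array. All 7 arrays of this time shared a day of RNA extraction, of transcription labelling and of scanning, so none of these steps separates the groups. Replicates 1 and 2 were taken on 1 day and replicate 3 and the sham on the next. Muscle RNA was uneven. The mean log2 signal of 28 measured skeletal muscle genes was 9.82, 7.14 and 7.00 in the exposed arrays against 12.55, 10.84 and 7.14 in the control arrays, with 7.25 in the sham array. Control replicates 1 and 2 and exposed replicate 1 therefore carried muscle, and the groups overlapped (difference -2.19, exact permutation test, two-sided, p = 0.2, where 0.1 is the smallest p that 3 against 3 arrays allow). Counts with this mean as a covariate are given below. The GAPDH probe sets of the 3' end minus those of the 5' end, a sign of RNA integrity, gave -0.34, -0.46 and -0.40 in exposed arrays against -0.14, -0.31 and -0.28 in control arrays, with -0.38 in the sham array (exact permutation test, two-sided, p = 0.1, or 0.34 adjusted over 17 such measures). The same measure for actin gave 0.42, 0.18 and 0.10 in exposed arrays against 0.04, 0.27 and 0.04 in control arrays, with -0.26 in the sham array, so those groups overlapped (exact permutation test, two-sided, p = 0.5). The part of either in the results was not tested. The limma p-values below rest on the spread within groups pooled over all 63 arrays, most of which were taken at other times. They do not measure the spread among the animals of 514 h alone.

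Of the 23999 probe sets 1398 (5.83%) passed the threshold, of which 888 (3.7%) were higher and 510 (2.13%) were lower in exposed than in control skin at an adjusted p under 0.05. Unless named otherwise, p-values come from limma fitted to all 63 arrays, with Benjamini-Hochberg adjustment across every probe set. A change of at least 2-fold was met by 134 higher probe sets (0.558%) and 50 lower ones (0.208%). Taking 1 probe set for each of 6765 named genes, 511 genes (7.55%) passed, of which 376 rose (5.56%) and 135 fell (2%), and the median difference over all genes was 0.03. Same-numbered exposed and control arrays deviated together, and with the number as a block the calls were 1278 higher and 884 lower probe sets, or 8.1% and 3.59% of the genes. Of the 1398 calls made without the block, 1335 were also made with it in the same direction.

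The number of calls rested on single arrays. In fits without the block it was 394 without exposed replicate 2, 638 without exposed replicate 1 and 591 without control replicate 1. It was 1402 without exposed replicate 3. Within same-numbered pairs, all 888 higher probe sets were higher in pairs 1 and 2 and 884 of them in pair 3, and of the 510 lower ones 509, 508 and 510 were lower in pairs 1, 2 and 3. These counts describe probe sets that were chosen on the same 6 arrays and are no separate evidence of direction. Pair 3 had the smallest difference for 999 of the 1398 called probe sets (71.5%). The median difference of the higher probe sets was 0.75, 0.67 and 0.43 in pairs 1, 2 and 3, and that of the lower ones -0.57, -0.67 and -0.45. The histology totals of the same exposed biopsies were 6, 7 and 9. Pair 3 was also the only pair taken on the later day and the only one without muscle in either biopsy. These cannot be told apart, and no link to the scores was tested. With the muscle mean as a covariate 791 probe sets were higher and 582 lower. Against the single sham array 873 of the 888 higher probe sets were also higher and 487 of the 510 lower ones also lower, which again uses the exposed arrays that chose them. With the sham array as the control 200 probe sets passed. Over all probe sets 7060 (29.4%) had exposed and control arrays that did not overlap, so a lack of overlap was common at 3 arrays a group. Of the 511 genes called 498 did not overlap, so for a called gene a lack of overlap is no separate evidence.

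Among named genes S100A9 had the largest rise, and its relatives S100A12 and S100A8 were among the 15 largest. They encode calcium-binding alarmins made by neutrophils and by stressed keratinocytes. S100A9 had log2 signals of 13.33, 13.61 and 11.82 in exposed skin against 9.20, 10.39 and 8.10 in control skin, with 8.13 in the sham array. The difference was 3.69 ± 0.70 (SE, n = 3 each, adjusted p = 0.000864), a 12.9-fold higher signal. S100A12 had 9.76, 9.29 and 8.88 in exposed skin and 7.14, 7.81 and 6.96 in control skin (difference 2.01 ± 0.37, adjusted p = 0.00066). S100A8, the partner of S100A9 in calprotectin, had 9.54, 9.43 and 8.57 in exposed skin and 7.43, 7.96 and 7.14 in control skin (difference 1.67 ± 0.29, adjusted p = 0.00041). All 3 genes had exposed arrays above every control array and above the sham array.

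ARG1 encodes arginase, which hydrolyses arginine to ornithine and urea and is made by epidermis and by wound macrophages. It had log2 signals of 9.97, 9.98 and 6.33 in exposed skin against 5.19, 5.73 and 4.85 in control skin (difference 3.51 ± 0.74, adjusted p = 0.00263). Exposed replicate 3 lay far below the other exposed arrays though above every control array, and without exposed replicate 2 the adjusted p was 0.054. ASS1, which makes the precursor of arginine, had 10.41, 9.97 and 9.82 in exposed skin against 8.73, 8.95 and 8.94 in control skin (difference 1.19 ± 0.25, adjusted p = 0.00219). It was picked after its values were seen.

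Several other genes with large rises belong to the upper epidermis. PRSS27, a serine protease, had log2 signals of 9.66, 10.41 and 9.54 in exposed skin against 7.61, 7.50 and 7.66 in control skin, with 7.84 in the sham array (difference 2.28 ± 0.24, adjusted p = 3.89e-08). IVL, involucrin of the cornified envelope, had 12.99, 13.20 and 12.10 in exposed skin against 10.75, 10.70 and 10.86 in control skin (difference 1.99 ± 0.28, adjusted p = 1.09e-05). KLK7, the kallikrein that cuts the junctions between corneocytes, had 13.36, 13.50 and 12.72 in exposed skin against 11.76, 11.51 and 11.51 in control skin (difference 1.60 ± 0.29, adjusted p = 0.000492). In each of the 3 the control arrays lay within a narrow range and the exposed arrays all lay above it. The call of each held without any 1 of the 6 arrays.

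The remaining large rises were of mixed kind. LGALS4, a galactose-binding lectin of epithelia, had log2 signals of 11.03, 10.96 and 9.85 in exposed skin against 8.12, 8.39 and 8.16 in control skin, with 8.91 in the sham array (difference 2.39 ± 0.46, adjusted p = 0.00109). MPZL2, an epithelial adhesion protein, had 9.43, 9.79 and 9.09 in exposed skin against 7.53, 7.90 and 8.07 in control skin (difference 1.61 ± 0.25, adjusted p = 8.66e-05). LOC396867, to which no further name is given here, had 9.48, 9.49 and 9.91 in exposed skin against 6.95, 7.04 and 7.36 in control skin (difference 2.51 ± 0.33, adjusted p = 6.49e-06). It was the only gene among the 15 largest rises with its highest exposed value in replicate 3.

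LOC100154873 rose by 2.00 ± 0.43 and STEAP1, a metalloreductase, by 1.61 ± 0.35, and STEAP1 lost its call without exposed replicate 2 (adjusted p = 0.069). The call of TCN1, a vitamin B12 carrier of secretory granules, was lost without exposed replicate 2 (adjusted p = 0.055) and without control replicate 1 (adjusted p = 0.068), and its other probe set differed by 0.20 against 2.06 for the one used. The growth factor PTN likewise had a difference of 1.68 ± 0.30 on the probe set used and -0.06 on its other probe set. MMP1, the interstitial collagenase, differed by 1.87 ± 0.58 with an adjusted p of 0.0431, and this call was lost in 5 of the 6 fits without 1 array, all except the fit without exposed replicate 3, with adjusted p-values of 0.071 to 0.296.

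**Figure D1:**
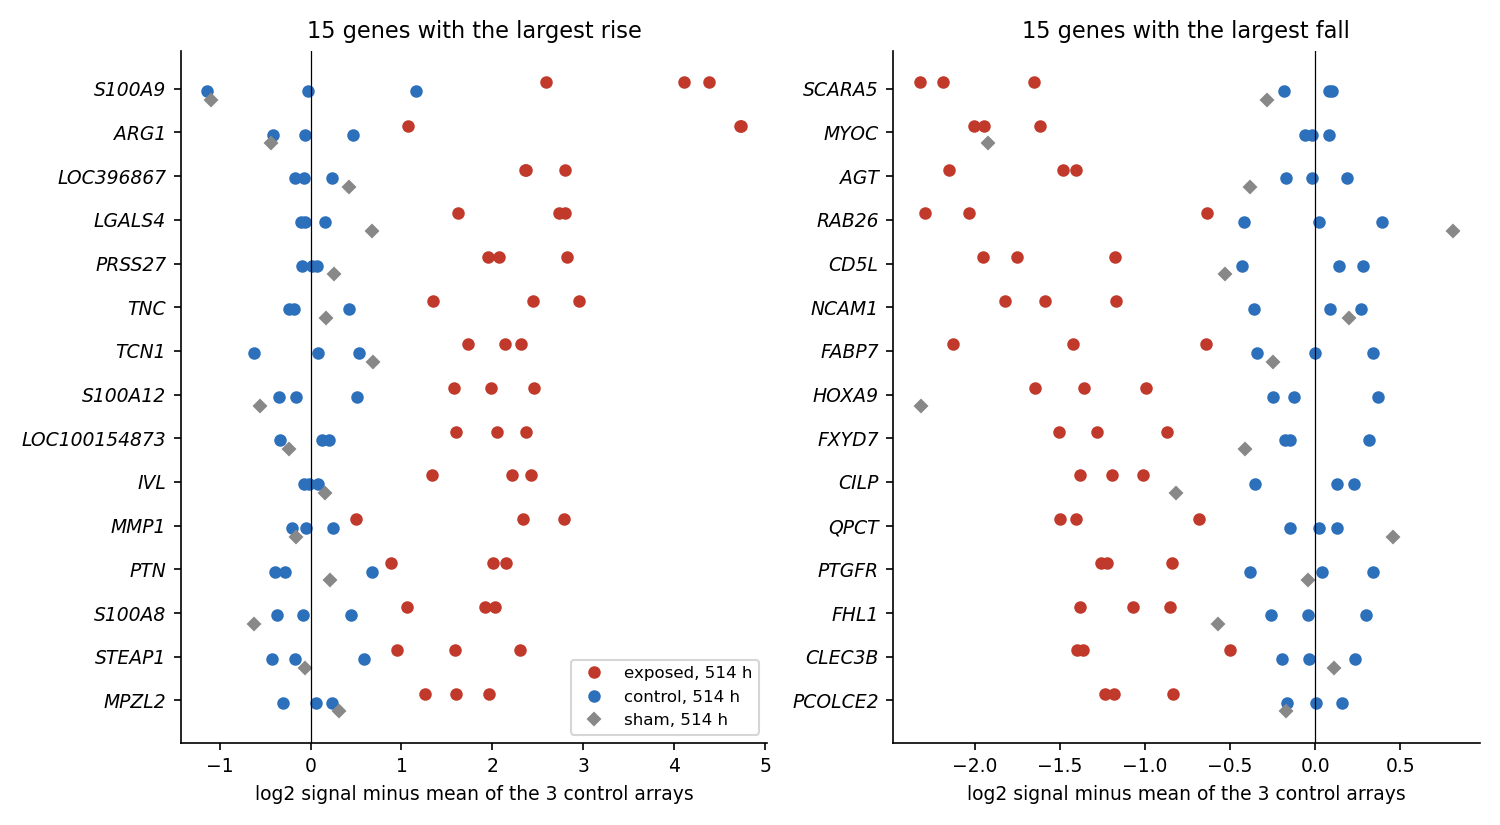
Log2 signal of each array at 514 h minus the mean of the 3 control arrays, for the 15 genes with the largest rise (left) and the 15 with the largest fall (right). Red points are the 3 exposed arrays, blue points the 3 control arrays and grey diamonds the sham array. Exposed and control points do not overlap for any of the 30 genes, which were chosen on these arrays. The same holds for 498 of the 511 genes called. The sham array lies with the exposed arrays for MYOC and beyond them for HOXA9.

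Of 15 measured genes of the differentiated keratinocyte and cornified envelope list, 2 rose, IVL and KLK7, none fell, beside 5.56% of all genes that rose and 2% that fell, and the median difference was 0.13 against 0.03 for all genes. KRT1 differed by 0.13 ± 0.27 and KRT10, its partner keratin, by 0.03 ± 0.25. The signals of KRT1 lay close to 14.54, the highest value on any array. Whether a rise was understated there was not tested. CALML5 and SERPINB7, a calmodulin-like protein and a serpin of the upper epidermis, differed by 0.82 ± 0.32 and 0.90 ± 0.35 with adjusted p-values of 0.132 and 0.13. With the replicate block these were 0.0773 and 0.0724. Both genes passed in limma fitted to the 6 arrays of 514 h alone without the block (adjusted p = 0.022 and 0.018). KRT2, a keratin of the uppermost living layers, had log2 signals of 11.93, 9.95 and 13.25 in exposed skin against 11.60, 12.22 and 12.20 in control skin, so that its exposed arrays spread on both sides of the controls (difference -0.30 ± 0.61).

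At earlier times more of the list passed, mostly lower. At 168 h 13 of its 15 genes fell and at 72 h 12 fell, while at 336 h 4 fell and 1 rose. Over all genes 9.12%, 14.5% and 4.18% rose at 72, 168 and 336 h, while 4.12%, 9.46% and 1.83% fell. The test of the difference between times was passed by 14 of the 15 genes for 514 h against 168 h and by 11 of 15 for 514 h against 72 h, all higher at 514 h. Over all 6765 genes 322 were higher and 333 lower at 514 h than at 168 h, and 146 higher and 112 lower than at 72 h. For 514 h against 336 h no gene of the list passed. KRT1 gave the largest of these differences, with -5.23 at 168 h and 0.13 at 514 h (difference between times 5.36 ± 0.38, adjusted p = 1.4e-12).

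Other epidermal lists also held a few calls each, beside 5.56% of all genes that rose and 2% that fell. Of 12 measured genes of activated keratinocytes 3 rose, and these were S100A8, S100A9 and S100A12, which also stand in the neutrophil list. Of 17 epidermal and sebaceous lipid genes 4 rose and none fell. HMGCS1, CYP51 and SQLE, enzymes of cholesterol synthesis, rose by 1.04 ± 0.22, 0.84 ± 0.16 and 0.78 ± 0.16 (adjusted p = 0.00255, 0.000846 and 0.00181). HMGCS1 had log2 signals of 10.91, 10.78 and 10.19 in exposed skin against 9.55, 9.53 and 9.68 in control skin. The fourth, ELOVL1, which lengthens fatty acids, rose by 0.49 ± 0.11, a call lost without exposed replicate 2 (adjusted p = 0.098) and without control replicate 1 (adjusted p = 0.088). FASN and SCD, which make and desaturate fatty acids, differed by -0.16 and -0.04. The sterol enzymes held their calls without any 1 of the 6 arrays.

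In the basal keratinocyte and basement membrane list 2 of 8 genes rose and 1 fell, beside 5.56% and 2% of all genes. DST, which encodes a hemidesmosome plaque protein among other forms, fell by 0.69 ± 0.15, a call lost without exposed replicate 2 (adjusted p = 0.067), and another of its 3 probe sets differed by -0.02. COL7A1, the collagen of anchoring fibrils, differed by 0.87 ± 0.26 (adjusted p = 0.0336), and its adjusted p was 0.052 to 0.19 in the 5 fits without any 1 array other than exposed replicate 3, and 0.0706 with the muscle mean as a covariate. ITGB1, the beta chain of many matrix receptors, differed by 0.40 ± 0.11 (adjusted p = 0.0225), with 0.074 to 0.138 without exposed replicate 1 or 2 or control replicate 1 or 2. Of 13 hair follicle and gland genes 2 rose, AQP3 and DKK3, and 1 fell. DKK3, a secreted relative of Wnt inhibitors, differed by 0.59 ± 0.15, with 0.01 in pair 3, and its call was lost without exposed replicate 1 or 2 or control replicate 1 or 2 (adjusted p = 0.072 to 0.15). FST, the activin antagonist follistatin, fell by 0.94 ± 0.23 (adjusted p = 0.00814, and 0.085 without exposed replicate 2). AQP3, an epidermal water and glycerol channel, rose by 0.87 ± 0.21 (adjusted p = 0.00984, with 0.06 without exposed replicate 2 and 0.069 without control replicate 1). Its exposed mean minus the sham array was 0.24.

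**Figure D2:**
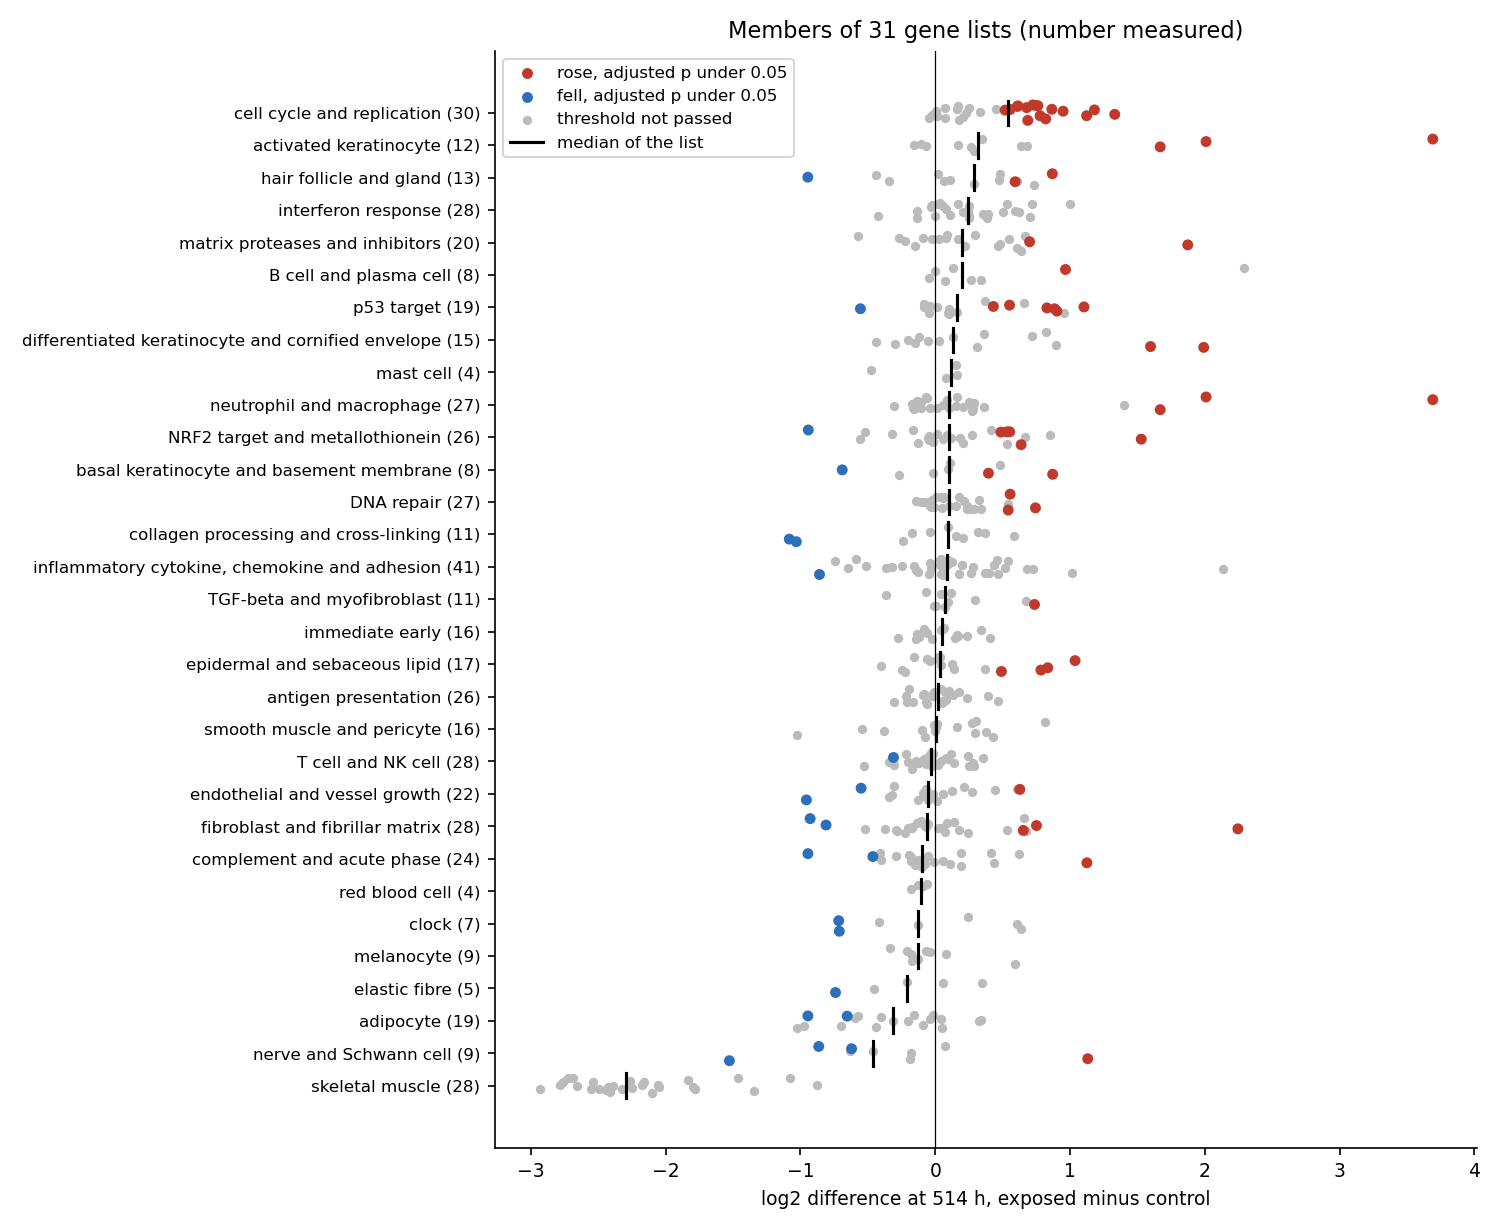
Log2 difference at 514 h, exposed minus control, of every measured member of 31 gene lists, ordered by the median of the list (black bars). Red points rose and blue points fell at an adjusted p under 0.05, grey points did not pass; the cell cycle list has the highest median, 0.54, and the skeletal muscle list the lowest, -2.30, with no member past the threshold.

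Genes of cell division were, of the 31 lists, the one with the most members raised. Of 30 measured cell cycle and replication genes 16 rose and none fell, beside 5.56% and 2% of all genes. The median difference was 0.54, against 0.03 for all genes. RRM2 and TYMS, which supply deoxynucleotides, rose by 1.33 ± 0.24 and 1.12 ± 0.27 (adjusted p = 0.000505 and 0.00777), and the mitotic cyclin CCNB1 rose by 1.18 ± 0.22 (adjusted p = 0.000665). RRM2 had log2 signals of 9.38, 9.41 and 8.72 in exposed skin against 7.50, 8.39 and 7.63 in control skin, with 8.09 in the sham array. CCNB1 had 9.95, 10.11 and 9.72 in exposed skin against 8.38, 9.13 and 8.72 in control skin, with 9.10 in the sham array. Both had exposed arrays above every control array, with control replicate 2 the highest of the controls.

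The mean log2 signal of the whole list was 9.27, 9.30 and 9.15 in exposed skin against 8.53, 8.97 and 8.72 in control skin, with 8.90 in the sham array. The count of 16 came down to 6 without control replicate 1 and to 9 without exposed replicate 2, and was 18 at most without any other array. No member passed against the single sham array, where 43 of all 6765 genes rose, and 16 rose with the muscle mean as a covariate. TYMS was among the calls lost without exposed replicate 2 (adjusted p = 0.052) and without control replicate 1 (adjusted p = 0.055), and its other probe set differed by 0.14. Members also rose earlier, with 19 members at 168 h and 14 at both 72 h and 336 h. Over all genes 14.5%, 9.12% and 4.18% rose at 168, 72 and 336 h. No member passed the test of the difference between 514 h and any of these times.

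Targets of p53, the transcription factor that answers DNA damage, rose in part. Of 19 measured 6 rose and 1 fell, beside 5.56% and 2% of all genes. CDKN1A, the cell cycle inhibitor p21, had log2 signals of 10.89, 10.59 and 10.72 in exposed skin against 9.96, 9.73 and 9.85 in control skin, with 10.13 in the sham array (difference 0.89 ± 0.16, adjusted p = 0.000592). GADD45A, a growth arrest gene, had 10.51, 10.44 and 10.15 in exposed skin against 9.35, 9.16 and 9.28 in control skin, with 9.85 in the sham array (difference 1.10 ± 0.22, adjusted p = 0.00183). Both genes were thus higher in the sham array than in any control array, though lower than in the exposed arrays.

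PHLDA3 rose by 0.55 ± 0.12 and held its call without any 1 of the 6 arrays. SFN, an epithelial 14-3-3 protein, rose by 0.90 ± 0.22, with an adjusted p of 0.056 without exposed replicate 2. PLK2 rose by 0.83 ± 0.20, with 0.057 without exposed replicate 1. BAX and ZMAT3 differed by 0.66 and 0.96 with adjusted p-values of 0.0536 and 0.0826, and with the replicate block these were 0.00622 and 0.00604. FAS, CCNG1 and DDB2, other targets of p53, differed by 0.09, 0.10 and -0.09. SESN1 was the member that fell, by 0.55, and this call was lost without any 1 array except exposed replicate 3, with its other probe set at -0.25.

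Of 27 DNA repair genes 3 rose and none fell, beside 5.56% and 2% of all genes. CHEK2, a checkpoint kinase, rose by 0.54 ± 0.11 (adjusted p = 0.00161). MGMT, which removes alkyl groups from guanine, differed by 0.74 ± 0.19 (adjusted p = 0.0125), with 0.054 without exposed replicate 3 and 0.149 without control replicate 1. PCNA, the replication clamp that also stands in the cell cycle list, differed by 0.56 ± 0.14, with adjusted p-values of 0.067, 0.075 and 0.146 without exposed replicate 1, exposed replicate 2 and control replicate 1. Without control replicate 1 a single member of the list passed.

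Among 26 targets of the antioxidant factor NRF2 and metallothioneins, 5 rose and 1 fell, beside 5.56% and 2% of all genes. With the block 2 fell, MT1A being added, beside 3.59% of all genes. NQO1, a quinone reductase, had log2 signals of 11.78, 11.56 and 10.92 in exposed skin against 9.78, 9.54 and 10.35 in control skin (difference 1.53 ± 0.32, adjusted p = 0.00263). The other 4 were the thiol proteins TXN, PRDX1, PRDX5 and PRDX6, with differences of 0.49 to 0.64. The call of PRDX5 was lost without exposed replicate 2 (adjusted p = 0.057) and without control replicate 1 (adjusted p = 0.077), and the list had 3 calls without control replicate 1. MT3, a metallothionein, had 8.48, 8.31 and 9.86 in exposed skin against 9.76, 9.65 and 10.07 in control skin, and its adjusted p of 0.0222 became 0.064 to 0.256 without exposed replicate 1 or 2 or control replicate 1 or 3.

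Among named genes SCARA5 had the largest fall. SCARA5, a ferritin receptor of fibroblasts, had log2 signals of 9.20, 9.33 and 9.87 in exposed skin against 11.34, 11.62 and 11.60 in control skin, with 11.24 in the sham array (difference -2.06 ± 0.30, adjusted p = 2.3e-05). AGT, angiotensinogen, had 10.56, 9.89 and 10.63 in exposed skin against 12.22, 12.02 and 11.87 in control skin (difference -1.68 ± 0.33, adjusted p = 0.00126). PCOLCE2, which enhances the cutting of procollagen, had 10.57, 10.62 and 10.97 in exposed skin against 11.64, 11.80 and 11.96 in control skin (difference -1.08 ± 0.16, adjusted p = 4.67e-05). In each of the 3 the sham array lay within 0.4 of the control mean and the exposed arrays lay below every control array.

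NCAM1, a neural adhesion molecule, had log2 signals of 7.09, 6.85 and 7.51 in exposed skin against 8.32, 8.95 and 8.76 in control skin, with 8.88 in the sham array (difference -1.53 ± 0.21, adjusted p = 9.71e-06). Its 4 probe sets differed by -1.53 to -0.70. RAB26, a small GTPase of secretory vesicles, fell by 1.65 ± 0.27 and CD5L, a secreted scavenger receptor protein of macrophages, by 1.63 ± 0.31 (adjusted p = 0.000172 and 0.00107). QPCT, which makes pyroglutamate at peptide ends, fell by 1.20 ± 0.24 (adjusted p = 0.00172), while the smallest of the differences of its 3 probe sets was -0.07.

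For 2 of the largest falls, MYOC and HOXA9, the sham array lay among or beyond the exposed arrays. For CILP, described below, exposed minus sham was -0.38, against -1.20 for exposed minus control. MYOC, myocilin of the matrix, had log2 signals of 8.50, 8.55 and 8.88 in exposed skin against 10.48, 10.58 and 10.44 in control skin, with 8.58 in the sham array, so that exposed minus sham was 0.07. HOXA9, a homeobox gene that marks position along the body, had 8.50, 8.14 and 7.85 in exposed skin against 9.87, 9.38 and 9.25 in control skin, with 7.19 in the sham array, so that exposed minus sham was 0.98. The call of HOXA9 (difference -1.33 ± 0.33) was lost without exposed replicate 2 (adjusted p = 0.057) and without control replicate 1 (adjusted p = 0.088).

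The other falls of that size passed by less. FABP7, a fatty acid carrier of glia, differed by -1.40, FXYD7, a sodium pump regulator, by -1.22, PTGFR, a prostaglandin receptor, by -1.11 on the probe set used and 0.12 on its other one, FHL1, a muscle LIM protein, by -1.10, and CLEC3B, the plasminogen-binding tetranectin, by -1.09. Without exposed replicate 2 the adjusted p-values of these 5 were 0.219, 0.125, 0.091, 0.122 and 0.093. Each was also lost without 1 or more of exposed replicate 1, control replicate 1 and control replicate 3, with adjusted p-values of 0.068 to 0.116. CILP, a cartilage matrix protein, differed by -1.20 with an adjusted p of 0.0498 and was lost in all 6 fits without 1 array, at 0.053 to 0.204, and with the muscle mean as a covariate, at 0.0822, and its other probe set differed by -0.05.

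Of 28 fibroblast and fibrillar matrix genes 3 rose, 2 fell and 23 did not pass, beside 5.56% and 2% of all genes, with a median difference of -0.06. TNC, tenascin-C of provisional wound matrix, had log2 signals of 10.42, 10.93 and 9.32 in exposed skin against 7.79, 8.40 and 7.74 in control skin, with 8.15 in the sham array (difference 2.25 ± 0.40, adjusted p = 0.0005). Its exposed arrays all lay above the controls, and it was the only rise of the list that held without any 1 of the 6 arrays. THBS2 and VCAN, a matricellular thrombospondin and the large proteoglycan versican, differed by 0.75 and 0.65, and both were lost without exposed replicate 1 (adjusted p = 0.088 and 0.06), exposed replicate 2 (0.135 and 0.14) or control replicate 1 (0.086 and 0.21). Of the 5 probe sets of VCAN the lowest differed by -0.04.

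TNXB and DPT, tenascin-X and dermatopontin, which space and bind collagen fibrils in mature dermis, differed by -0.93 ± 0.26 and -0.81 ± 0.22 (adjusted p = 0.024 and 0.0216). TNXB had log2 signals of 10.67, 10.83 and 11.35 in exposed skin against 11.59, 11.97 and 12.08 in control skin, and DPT had 11.03, 11.30 and 11.42 in exposed skin against 11.88, 12.16 and 12.14 in control skin. Both calls were lost without exposed replicate 1, exposed replicate 2, control replicate 2 or control replicate 3, with adjusted p-values of 0.07 to 0.137. The fibrillar collagen genes COL1A2 and COL3A1 differed by 0.08 ± 0.42 and -0.17 ± 0.22, and fibronectin, FN1, by -0.11 ± 0.15. Their exposed and control arrays overlapped.

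Of 11 collagen processing genes none rose and 2 fell, PCOLCE2 and the lysyl oxidase LOXL4, which had log2 signals of 8.65, 8.81 and 9.52 in exposed skin against 9.67, 10.17 and 10.24 in control skin (difference -1.03 ± 0.22, adjusted p = 0.00329). With the block LOXL1 also rose (adjusted p = 0.0186). Another of the 3 LOXL4 probe sets differed by -0.14. Over all genes 5.56% rose and 2% fell, and of 5 elastic fibre genes 1 fell. This was MFAP5, a microfibril glycoprotein, with 12.26, 12.53 and 12.90 in exposed skin against 13.01, 13.47 and 13.42 in control skin (difference -0.74 ± 0.15, adjusted p = 0.00163).

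Of 11 TGF-beta and myofibroblast genes 1 rose. TGFB1, the growth factor itself, had log2 signals of 9.19, 9.04 and 8.90 in exposed skin against 8.03, 8.76 and 8.13 in control skin, with 8.85 in the sham array (difference 0.74 ± 0.17, adjusted p = 0.00519, and 0.068 without control replicate 1). Its other probe set differed by 0.25. ACTA2, the smooth muscle actin of myofibroblasts, differed by 0.01 ± 0.12. Of 20 matrix proteases and inhibitors 2 rose, MMP1 and the cathepsin CTSK, whose difference of 0.70 ± 0.18 lost its call without exposed replicate 1 (adjusted p = 0.073), exposed replicate 2 (0.068) or control replicate 1 (0.075). With the replicate block 6 of the 20 rose and 1, ADAMTS1, fell, the added rises being MMP7, MMP14, TIMP1 and the urokinase gene PLAU. Over all genes 5.56% rose without the block, and 8.1% rose and 3.59% fell with it. At 168 h 13 of the 20 rose, beside 14.5% of all genes. The test of 514 h against 168 h was passed by 6 of the 20, all lower at 514 h, beside 333 of all 6765 genes that were lower.

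Immune and inflammatory lists held few calls, beside 5.56% of all genes that rose and 2% that fell. Of 27 neutrophil and macrophage genes 3 rose, and these were again S100A8, S100A9 and S100A12. The median difference of the list was 0.11, and 17 of the 27 differences were above 0, beside 3713 of 6765 over all genes. The mean of the list was 9.22, 9.39 and 9.16 in exposed skin against 8.62, 9.29 and 8.75 in control skin, with 8.92 in the sham array, so the groups overlapped (difference 0.37, exact permutation test, two-sided, p = 0.3). LTF, the lactoferrin of neutrophil granules and of glands, had log2 signals of 10.71, 10.90 and 10.82 in exposed skin against 9.24, 9.37 and 9.62 in control skin, with 10.30 in the sham array. Its difference of 1.40 ± 0.47 had an adjusted p of 0.0674, and 0.00086 with the replicate block. Of the 27 genes 21, 22 and 12 rose at 72, 168 and 336 h, beside 9.12%, 14.5% and 4.18% of all genes. The test between times was passed by 15 of them for 514 h against 168 h and by 7 for 514 h against 72 h, all lower at 514 h, beside 333 and 112 of all 6765 genes that were lower.

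Of 41 inflammatory cytokine, chemokine and adhesion genes none rose and 1 fell. An unadjusted p under 0.05 was found for 5 of them, beside 1459 of all 6765 genes. CXCL12, a chemokine made by dermal fibroblasts and vessels, fell by 0.86 ± 0.21 (adjusted p = 0.0105, with 0.082 without exposed replicate 2 and 0.053 without control replicate 2). Its 2 probe sets gave differences of -0.86 and -0.85. With the replicate block 3 rose and 3 fell, beside 8.1% and 3.59% of all genes. These were CXCL8, CCL27 and PTGES higher and CXCL12, CCL14 and NFKBIA lower. CXCL8, the neutrophil chemokine interleukin-8, had log2 signals of 6.34, 7.20 and 6.67 in exposed skin against 4.50, 4.83 and 4.47 in control skin, with 4.67 in the sham array. Its exposed arrays all lay above the controls, the difference was 2.14 ± 0.70, and the adjusted p was 0.0604, or 0.00728 with the block. At 168 h its difference had been 6.12, and the 2 times differed (adjusted p = 0.008).

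No gene passed among 28 interferon response genes and 26 antigen presentation genes in limma, none had an unadjusted p under 0.05, and none passed with the replicate block. Over all genes 5.56% rose, 2% fell and 1459 of 6765 had an unadjusted p under 0.05. The interferon genes had 22 of 28 differences above 0 and a median of 0.25, beside 3713 of 6765 above 0 over all genes. The mean of the list was 8.61, 9.43 and 9.44 in exposed skin against 8.39, 9.23 and 9.12 in control skin. The sham array, at 9.66, lay above all of these. ISG15, a ubiquitin-like interferon product, had log2 signals of 10.65, 11.92 and 11.66 in exposed skin against 9.18, 10.82 and 11.22 in control skin, with 11.96 in the sham array, and the groups overlapped. Among 16 immediate early genes none passed and none had an unadjusted p under 0.05 in limma, and none passed with the block. Of 28 T cell and NK cell genes 1, CCR7, differed by -0.31 with an adjusted p of 0.0355, a call lost without exposed replicate 1 or 2 or control replicate 2 or 3 (0.099 to 0.197).

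Of 8 B cell and plasma cell genes 1 rose, beside 5.56% of all genes. TNFRSF17, a receptor of plasma cells, had log2 signals of 7.51, 8.09 and 7.58 in exposed skin against 6.49, 7.08 and 6.70 in control skin, with 6.86 in the sham array (difference 0.97 ± 0.20, adjusted p = 0.00186). JCHAIN, which joins secreted antibody, had 11.88, 12.42 and 11.85 in exposed skin against 8.28, 11.56 and 9.43 in control skin, with 10.16 in the sham array. Its difference of 2.29 ± 0.80 had an adjusted p of 0.086, and 0.0124 with the replicate block. The exposed arrays were alike for JCHAIN while the control arrays ranged widely.

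In the complement and acute phase list 1 of 24 genes rose and 2 fell, beside 5.56% and 2% of all genes. CFD, complement factor D, which adipocytes also secrete, had log2 signals of 11.30, 11.23 and 11.74 in exposed skin against 12.23, 12.47 and 12.41 in control skin (difference -0.94 ± 0.17, adjusted p = 0.000564). CLU, the extracellular chaperone clusterin, rose by 1.13 ± 0.25 (adjusted p = 0.00499, and 0.057 without exposed replicate 2). ORM1, an acute phase protein, fell by 0.46 ± 0.12 (adjusted p = 0.0138, and 0.074 without exposed replicate 2), and another of its probe sets differed by 0.04.

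Markers of other cell types in the biopsy moved as follows. All 28 skeletal muscle genes had a difference below 0, from -2.94 for MYH2 to -0.87 for ACTN2, and none passed in limma. An unadjusted p under 0.05 was found for 1 of them, beside 1459 of all 6765 genes. MYH2, a fast myosin, had log2 signals of 11.25, 6.18 and 5.45 in exposed skin against 13.67, 12.11 and 5.91 in control skin, with 5.30 in the sham array. With the replicate block CA3 and PDK4 fell (adjusted p = 0.016 and 0.000341). In pair 3, where neither biopsy carried muscle, the difference of S100A9 was 3.72, that of IVL 1.25 and that of SCARA5 -1.73. Other large rises were small in that pair, with 0.21 for PTN, 0.36 for STEAP1 and 0.55 for MMP1. The rule that named these genes required the same sign in all 3 pairs, so their direction in pair 3 was fixed. Pair 3 holds 1 array of each group, taken on another day than pairs 1 and 2.

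The mean of 19 adipocyte genes was 9.62, 9.72 and 9.66 in exposed skin against 10.09, 10.10 and 9.82 in control skin, with 9.91 in the sham array. Of these genes 2 fell, CFD and the fatty acid carrier FABP4 (difference -0.65 ± 0.15, adjusted p = 0.00699, and 0.07 without exposed replicate 2). With the block 4 fell, LIPE and RBP4 being added. Over all genes 2% fell without the block and 3.59% with it. The median difference of the list was -0.31, with 15 of the 19 below 0, beside 3052 of 6765 over all genes. ADIPOQ and LEP differed by 0.05 and -0.02. The adipocyte means did not overlap between groups, but 3 against 3 arrays allow no exact p below 0.1 (p = 0.1, and 0.34 after adjustment over the 17 measures of this kind).

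Of 9 nerve and Schwann cell genes 3 fell and 1 rose, beside 2% and 5.56% of all genes. GAP43, a growth-associated protein of axons, had log2 signals of 7.58, 7.49 and 7.33 in exposed skin against 8.13, 8.69 and 8.17 in control skin, with 7.88 in the sham array (difference -0.86 ± 0.19, adjusted p = 0.00449). NCAM1 is given above, and S100B of Schwann cells and melanocytes differed by -0.62 ± 0.15, a call lost without exposed replicate 2 (adjusted p = 0.085) or control replicate 1 (0.081). The exposed mean of S100B minus the sham array was -0.13. UCHL1, a neuronal deubiquitinase, differed the other way, by 1.13 ± 0.30, and lost its call without exposed replicate 1 or 2 or control replicate 1 or 3 (0.055 to 0.161). The mean of the list was 8.14, 7.92 and 8.07 in exposed skin against 8.28, 8.51 and 8.43 in control skin, so the groups did not overlap (exact permutation test, two-sided, p = 0.1, adjusted 0.34).

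Of 22 endothelial and vessel growth genes 1 rose and 2 fell, beside 5.56% and 2% of all genes. PECAM1, VWF and CDH5 of vessel walls differed by -0.09, -0.07 and 0.13. LYVE1, a hyaluronan receptor of lymphatic vessels, differed by -0.96 ± 0.25 on the probe set used, with -0.16 as the smallest difference of its 3 probe sets. Its exposed mean minus the sham array was -0.11. It lost its call without exposed replicate 1 (adjusted p = 0.064), exposed replicate 3 (0.124) or control replicate 1 (0.055). VEGFA differed by -0.55 on the probe set used and by 0.35 on another, and lost its call without exposed replicate 1 (adjusted p = 0.117), exposed replicate 2 (0.177) or control replicate 1 (0.179), and with the muscle mean as a covariate (0.0641). ANGPT1 differed by 0.63, with an adjusted p of 0.0433 that was 0.0538 with the block. Without control replicate 2 its difference was 0.36 (adjusted p = 0.357), and the call was also lost without exposed replicate 1 (0.174), exposed replicate 2 (0.17) or control replicate 1 (0.052), and with the muscle mean as a covariate (0.0579).

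Of 16 smooth muscle and pericyte genes none passed in limma, with 4 at an unadjusted p under 0.05. Over all genes 1459 of 6765 had such a p, which also applies to the lists below. RGS5 of pericytes had log2 signals of 11.36, 10.88 and 11.08 in exposed skin against 10.31, 10.00 and 10.55 in control skin (difference 0.82 ± 0.26, adjusted p = 0.054, and 0.00228 with the block). None of 9 melanocyte genes passed, with 1 at an unadjusted p under 0.05, and with the block GPNMB, which macrophages also express, rose by 0.60 (adjusted p = 0.00603). None of 4 mast cell genes passed, with 1 at an unadjusted p under 0.05, and with the block GATA2 fell by 0.48 (adjusted p = 0.0203). None of 4 red blood cell genes passed with or without the block or had an unadjusted p under 0.05. Of 7 clock genes 2 fell, beside 2% of all genes. CRY2 fell by 0.72 ± 0.17 (adjusted p = 0.00669), and PER1 by 0.71 ± 0.18, with an adjusted p of 0.135 without exposed replicate 2 and 0.061 without control replicate 1 and another probe set at 0.05.

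**Figure D3:**
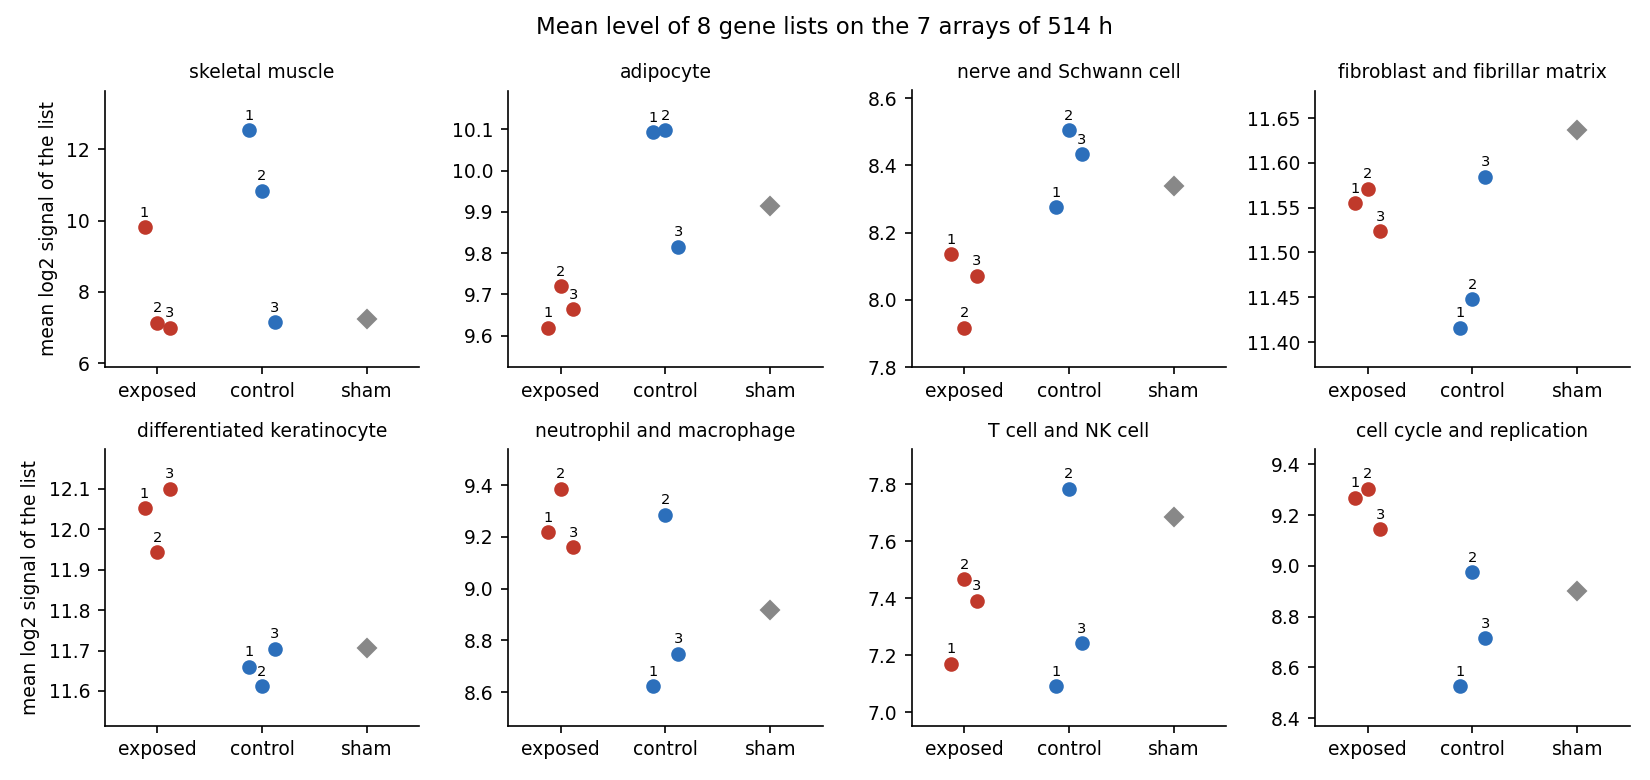
Mean log2 signal of 8 gene lists on the 3 exposed arrays (red), the 3 control arrays (blue) and the sham array (grey) of 514 h, with replicate numbers beside the points; each panel has its own axis, which does not start at 0. Exposed and control arrays do not overlap for the adipocyte, nerve, differentiated keratinocyte and cell cycle lists, and overlap for the skeletal muscle, fibrillar matrix, neutrophil and macrophage, and T cell lists.

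The calls at 514 h were set beside those at earlier times, which come from other animals with their own control sites. At 336 h 970 probe sets (4.04%) passed, and 571 (2.38%) were higher and 399 (1.66%) lower. Of the 888 higher probe sets at 514 h, 252 were also higher at 336 h, which is 28.4% of the 514 h list and 44.1% of the 336 h list. Of the 510 lower ones 150 were also lower at 336 h, 29.4% and 37.6% of the 2 lists. No probe set was higher at 514 h and lower at 336 h, and 1 was lower at 514 h and higher at 336 h.

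At 168 h 4304 probe sets (17.9%) passed, and 2369 (9.87%) were higher and 1935 (8.06%) lower, and 283 and 168 were shared with the higher and the lower list of 514 h. These were 31.9% and 32.9% of the 514 h lists but 11.9% and 8.68% of the 168 h lists. In the opposite direction, 71 probe sets were higher at 514 h and lower at 168 h, and 6 were lower at 514 h and higher at 168 h. Higher probe sets made up 14.4%, 5.84% and 5.4% of all at 24, 48 and 72 h, and lower ones 12.7%, 4.11% and 4.25%. Taking both directions, 27.1%, 9.95% and 9.65% passed at those 3 times, and 1.2%, 0.392% and 1.45% at 1, 2 and 4 h. Calls at no other time of the study were made for 191 of the 888 higher probe sets (21.5%) and 194 of the 510 lower ones (38%).

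Few probe sets passed a test of change between 336 h and 514 h. With 3 arrays a group, a probe set that did not pass is not shown to be unchanged. A direct test of 514 h against 336 h was passed by 3 of 23999 probe sets (0.0125%), all higher at 514 h, while 1762 had an unadjusted p under 0.05. The named one was RORA, a nuclear receptor that promotes keratinocyte differentiation, with a difference of -1.60 at 336 h and 0.24 at 514 h (difference between times 1.84, adjusted p = 0.0071). Its call was lost without control replicate 2 of 336 h (adjusted p = 0.05). With the replicate block 1 probe set passed. Against 168 h 1799 probe sets (7.5%) passed, 898 higher (3.74%) and 901 lower (3.75%) at 514 h. Against 72 h, whose arrays were scanned on the same day as those of 514 h, 674 (2.81%) passed, 415 higher (1.73%) and 259 lower (1.08%). This count was 403 without exposed replicate 1 of 514 h, 378 without control replicate 2 of 514 h and 361 without exposed replicate 3 of 72 h. With the block the counts were 2708 and 1128.

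**Figure D4:**
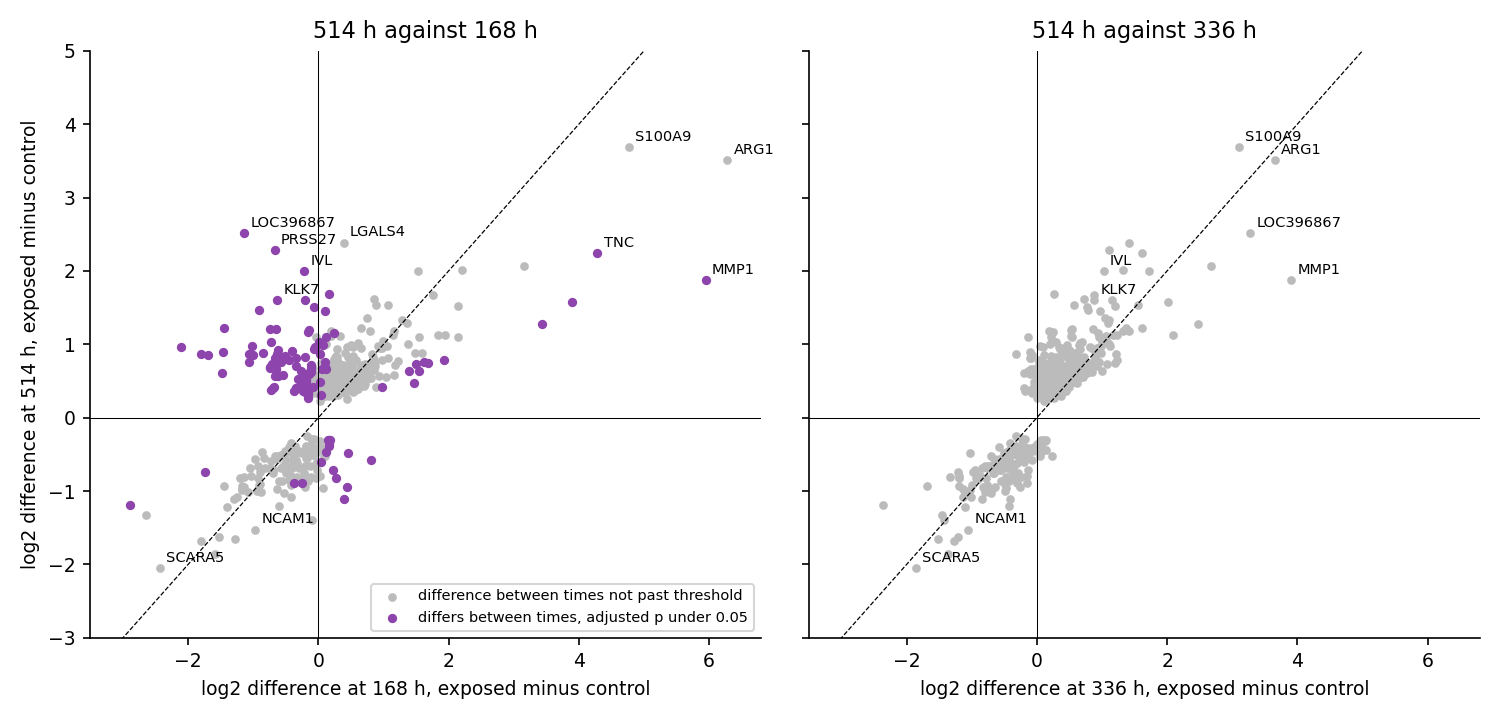
Log2 difference, exposed minus control, at 514 h (vertical) against that at 168 h (left) and 336 h (right) for the 511 genes past the threshold at 514 h; purple points passed the test of the difference between the 2 times, and the dashed line marks equal differences. At 168 h LOC396867, PRSS27, IVL and KLK7 lie left of 0 while they are above 1.5 at 514 h; at 336 h no gene of these 511 passed the test of the difference.

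Some genes kept the same direction at each time from 24 h on. Over 24, 48, 72, 168, 336 and 514 h, 32 genes were higher and 14 lower at every time, of 376 higher and 135 lower at 514 h. Those named here were picked after their values were seen. At 24, 168, 336 and 514 h ARG1 differed by 6.06, 6.28, 3.66 and 3.51. S100A9 differed by 2.16, 4.77, 3.10 and 3.69 at the same times, and TNC by 3.91, 4.28, 1.61 and 2.25. For TNC the fall between 168 h and 514 h passed the test of the difference (-2.04 ± 0.57, adjusted p = 0.0197), whereas for ARG1 (adjusted p = 0.101) and S100A9 (0.58) it did not.

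CDKN1A and GADD45A were among the 32, at 1.92 and 2.61 at 24 h and 0.89 and 1.10 at 514 h. SGK1, a stress-induced kinase, CNN2, an actin-binding calponin, and KPNA2, a nuclear importin, differed by 0.98, 1.01 and 0.95 at 514 h, and their differences at the other 5 times ran from 0.76 to 1.38. Among the 14 lower genes were RAB26, NCAM1, HOXA9, QPCT and CRY2, of which NCAM1 differed by -1.76 at 24 h, and by -0.97, -1.05 and -1.53 at 168, 336 and 514 h. LAMB2, a laminin chain of basement membranes, differed by -1.27 at 24 h and by -0.83 at 514 h, with an adjusted p of 0.061 at the later time without exposed replicate 2.

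Other genes turned round. Of the 376 genes that rose at 514 h, 51 had been lower at 24, 48 or 72 h. At 24 h 13.9% of the higher probe sets of 514 h were lower, close to the 12.7% of all probe sets. The count is thus no trait of the genes that rose. At 24, 168, 336 and 514 h LOC396867 differed by -1.25, -1.14, 3.28 and 2.51. KLK7 differed by -1.79, -0.64, 0.88 and 1.60 at the same times, and PRSS27 by -0.99, -0.67, 1.10 and 2.28. CKMT1A, a mitochondrial creatine kinase of epithelia, had log2 signals of 10.77, 10.78 and 10.40 in exposed skin against 9.16, 9.25 and 9.12 in control skin at 514 h (difference 1.47 ± 0.18, adjusted p = 1.08e-06) after a difference of -1.22 at 24 h. SLC2A1, the glucose transporter GLUT1, had 11.32, 10.82 and 10.62 in exposed skin against 9.61, 9.42 and 9.66 in control skin (difference 1.36 ± 0.20, adjusted p = 2.3e-05) after -0.59 at 24 h. TMEM79, a transmembrane protein of the granular layer, differed by -1.04 at 24 h and 1.21 at 514 h.

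The reverse was rare. Among the 135 genes that fell at 514 h, 5 had been higher at 24, 48 or 72 h, namely PTGFR, PCOLCE2, LYVE1, CFD and SWAP70. At 24 h 1.96% of the lower probe sets of 514 h were higher, beside 14.4% of all probe sets. Genes called at 514 h and at no other time numbered 61 of the 376 higher and 34 of the 135 lower ones. LGALS4, TNFRSF17, CYP51 and ASS1 were among the 61 and LOXL4, FABP4 and FZD4, a receptor for Wnt and norrin, among the 34 lower ones. FZD4 fell by 0.81, a call lost without exposed replicate 2 (adjusted p = 0.055) or control replicate 1 (0.055). That such a gene passed at 1 time does not show that it differed from the other times, and for LGALS4 the test of 514 h against 336 h gave an adjusted p of 0.798, against 168 h 0.051 and against 72 h 0.0211.

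**Figure D5:**
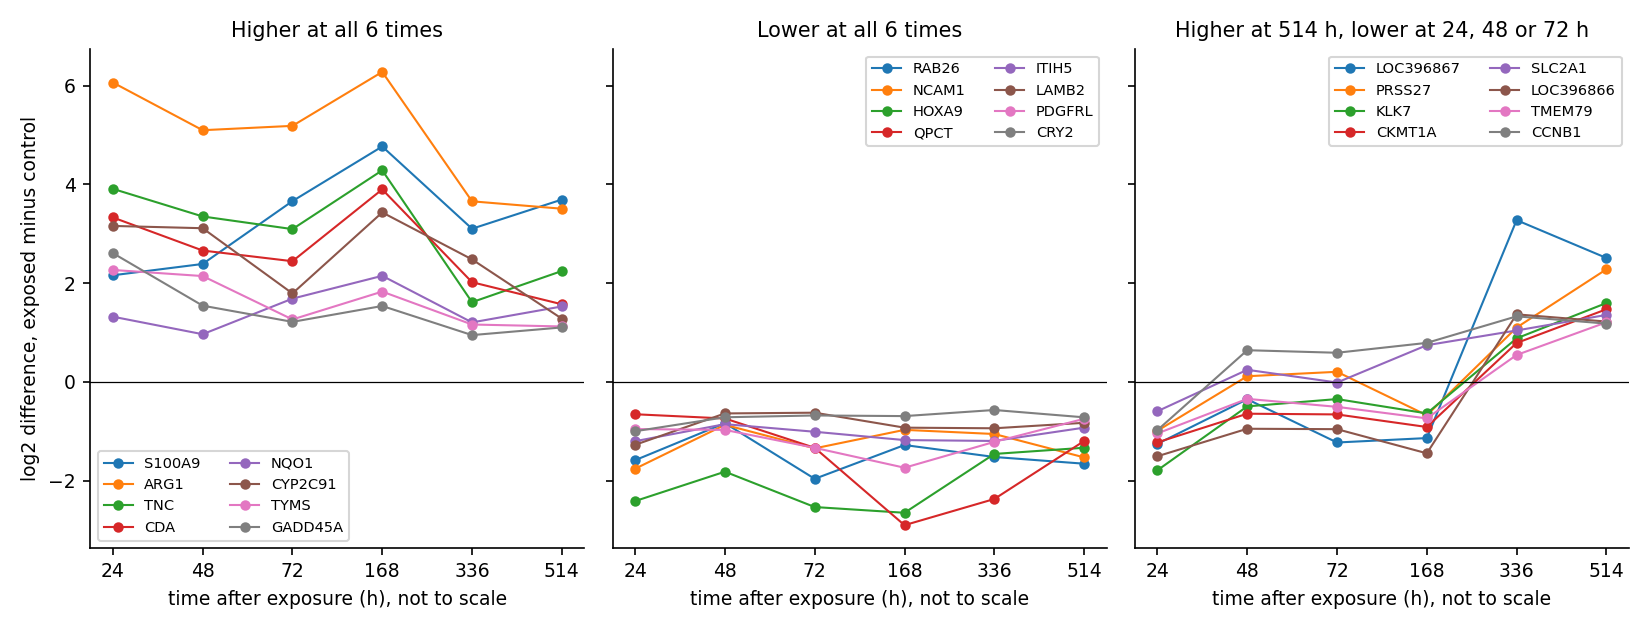
Log2 difference, exposed minus control, at 6 times for 8 genes higher at all 6 times (left), 8 lower at all 6 times (middle) and 8 that were higher at 514 h after being lower at 24, 48 or 72 h (right); the times are evenly spaced and not to scale. ARG1 stays above 3.5 at every time shown, and LOC396867 crosses from -1.14 at 168 h to 3.28 at 336 h.

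Some of the largest differences had no gene name in the annotation used here. The largest rise of all probe sets was in such an unnamed probe set, with log2 signals of 10.86, 10.28 and 8.95 in exposed skin against 5.88, 5.89 and 5.28 in control skin, with 5.45 in the sham array (difference 4.35 ± 0.34, adjusted p = 1.82e-11). Its difference had been -0.04, 2.88 and 4.07 at 24, 168 and 336 h. The next unnamed probe set had 9.03, 9.75 and 6.93 in exposed skin against 5.24, 5.63 and 5.39 in control skin (difference 3.15 ± 0.45, adjusted p = 1.53e-05). Both had low signals in all control arrays and in the sham array. The largest unnamed falls were those of 2 probe sets, of which 1 differed by -2.16 ± 0.60 with a sham array at 5.40, below the exposed mean of 5.84, and the other differed by -1.89 ± 0.38 with a sham array at 11.27, close to the control mean of 11.11.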

How the data were processed

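Each biopsy's RNA was hybridised to 1 Affymetrix porcine array. The deposited values are log2 signals, for which the submitters' processing notes name RMA and Partek without versions. RMA compresses differences of dim probe sets. An array has no read depth, and the number of arrays limits precision.

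All 63 arrays were fitted in limma 3.58.1 (R 4.3.3) with 1 mean per group (36 residual degrees of freedom), after 124 control probe sets were left out. The sham group of 1 array was taken to vary like the others. P-values are two-sided, Benjamini-Hochberg adjusted over 23999 probe sets, with a threshold of 0.05. The platform annotation supplied here listed 10267 of these probe sets, and 9961 matched RefSeq genes of Sscrofa11.1. Of 6765 genes 2261 had several probe sets, each then being represented by its brightest on average across the 63 arrays. For many of the named genes whose probe sets disagreed, another probe set's value is given.

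The labels do not say that a replicate number stands for 1 animal. Residuals of same-numbered exposed and control arrays at 514 h correlated over probe sets with r of 0.56, 0.331 and 0.453. Fits with the number as a block are therefore given where they change a call. The main fit and the fits without 1 array have no term for these pairs. No 2 arrays of 514 h held the same values.

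Genes were named by rule, namely the 15 largest rises and 15 largest falls past the threshold with the same sign in 3 pairs, up to 3 members of each list, and up to 4 per direction for differences between times. Others were chosen after their values were seen. The members and the 31 lists were chosen with earlier results of these data known. The procedure was tested on simulated data. Alternatives were the block, other arrays in the fit, leaving out each array, the sham as control, other normalizations, filters, variance models and the muscle mean.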

Additional observations from a re-analysis of the deposited data

Results flagged for a closer look

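The difference between exposed and control skin at 514 h was set against that at 3 earlier times in 1 fit, and these results passed the test of that difference. Against 336 h 3 probe sets passed, against 168 h 1799 and against 72 h 674.

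RORA, a nuclear receptor gene, was higher at 514 h than at 336 h by 1.84 on the log2 scale. Relative to 168 h the upper epidermal genes KRT1, CALML5 and SERPINB7 were higher at 514 h by 5.36, 5.13 and 4.74, and SULT1E1, an estrogen sulfotransferase, by 4.72. In the other direction, the difference between times was -4.65 for the neutrophil chemokine CXCL2, -4.09 for SDS, which breaks down serine, -4.08 for MMP1 and -3.98 for CXCL8. All 8 had adjusted p-values of 0.00803 or less, and MMP1 and CXCL8 still lay above control at 514 h in each of 3 exposed arrays.

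Relative to 72 h LOC396867, CALML5, SERPINB7 and KRT1 were higher at 514 h by 3.74, 3.68, 3.68 and 3.41. The difference was -4.46 for the platelet chemokine PPBP, -2.90 for SDS, -2.65 for CXCL2 and -2.58 for the pentraxin PTX3. SDS lost this call in 9 of 12 fits without 1 array, with adjusted p-values of 0.057 to 0.237, and CXCL2 in 2, without exposed replicate 2 of 514 h (0.052) and without exposed replicate 3 of 72 h (0.103).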

How the results depend on the processing

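The 1398 calls at 514 h became 2162 with the replicate block, 2295 with the block in the 6 arrays alone, 2674 with array weights, 184 at 2-fold or more, 200 with the sham array as control and 6 in pair 3 alone, where a single array stands for each group. Without 1 array they ranged from 394 to 1402. Other settings gave 1000 to 1572. The differences between times gave 1 probe set against 336 h with the block (1 to 8 without 1 array), 2708 against 168 h and 1128 against 72 h (361 to 835 without 1 array). With array weights, and where a single array stands for a group, the cause of the change was not tested. Of 125 named genes in 2624 comparisons with another setting, 2189 kept direction and side of the threshold, 352 no longer passed, 50 newly passed, 31 changed sign without passing in either setting (14 genes, MYH2 and KRT2 among them), and 2 that had passed changed sign. These 2 were MYOC (0.0667) and HOXA9 (0.982) against the sham array. Dim signals such as those of MMP1 and CXCL8 in control skin lie near the lower end of the RMA scale, and their differences can be understated. Beyond the calls named in the report, the block added COL5A3, C5 and DBP as falls and FADS1, AQP5, CD93 and MCM5 as rises, and it changed no other call among list members. With the muscle mean as a covariate COL7A1, VEGFA, ANGPT1 and CILP no longer passed (adjusted p = 0.0706, 0.0641, 0.0579 and 0.0822).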
